A study of Mus musculus with 15 samples.

Results

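The genes described here are 44 genes of cell division, chosen by name and found as gene names of the array: 19 act in entry into S phase and in DNA replication, and 25 act in mitosis. They are 44 of 34816 gene names measured, each read from its probe of highest mean signal. The arrays measured RNA of CD4 T cells that a flow cytometer had sorted out of gut leukocytes of male mice, taken from the small intestinal lamina propria, the connective tissue layer beneath the epithelium. Of the 15 one-colour arrays, 5 were from mice on day 30 of a high-fat diet (HFD d30), 5 from mice on day 10 of that diet (HFD d10) and 5 from mice on normal chow (control). No strain, genotype or age is given for any group, the controls have no stated day, and the text of the series describes the diet as a way to alter the gut microbiota. How long the diet was eaten and how old the mice were cannot be told apart. The labels do not state whether each sample of a group is a mouse of its own, so the spread behind every p-value is that between samples and may be technical.

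A dividing cell first copies its DNA and then separates the copies. Before S phase, Cdc6 and Cdt1 load the Mcm helicase, a ring of the Mcm2 to Mcm7 proteins, onto replication origins, and Cdc45, Gins2 and Mcm10 help to start it. In mitosis, Cdk1 with cyclin B condenses the chromosomes and builds the spindle, the checkpoint proteins Bub1, Bub1b and Mad2l1 hold the cell until every chromosome is attached, and Cdc20 and Ube2c then direct the destruction of cyclin B. Activated T cells divide rapidly, while most resting memory T cells of a tissue are not in cycle, so these transcripts are commonly read as marks of cycling cells. Replication genes are known targets of the E2F factors, and many mitosis genes are switched through a CHR element near a CCAAT box, which binds NF-Y.

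Both classes of promoter element are shown for some of the genes described below. The letters searched were TTTCCCGC or TTTGGCGC for E2F, TTTGAA or TTCGAA for the CHR element and CCAAT for NF-Y, on both strands, in 250 bases before and 50 bases after each start in RefSeq (build GRCm38.p6). Of the 44 genes, 36 had a promoter there. The CHR letters were found in 15 of 20 mitosis promoters (75%) and 3 of 16 replication promoters (18.8%), against 19.4% of all 27025 promoters. The E2F letters were found in 0 of 20 mitosis promoters and 6 of 16 replication promoters (37.5%), against 1.63% of all promoters. The CCAAT letters were found in 17 of 20 mitosis promoters (85%) and 10 of 16 replication promoters (62.5%), against 37.9% of all. The next sequences are the 150 bases that end just before the start, 5′ to 3′ on the gene's strand, with matches to any of these letters in capitals; they come from chr1:128359706-128359855 (minus strand) for Mcm6, chr11:98908001-98908150 (plus strand) for Cdc6, chr2:129297213-129297362 (minus strand) for Ckap2l, chr2:164769779-164769928 (plus strand) for Ube2c, chr7:135716380-135716529 (minus strand) for Mki67 and chr9:70421555-70421704 (minus strand) for Ccnb2.
Mcm6: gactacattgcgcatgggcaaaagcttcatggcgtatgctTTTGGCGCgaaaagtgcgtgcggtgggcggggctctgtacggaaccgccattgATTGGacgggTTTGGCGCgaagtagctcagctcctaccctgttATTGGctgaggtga
Cdc6: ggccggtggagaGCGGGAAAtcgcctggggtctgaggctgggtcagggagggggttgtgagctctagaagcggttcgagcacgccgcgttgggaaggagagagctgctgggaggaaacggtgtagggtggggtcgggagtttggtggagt
Ckap2l: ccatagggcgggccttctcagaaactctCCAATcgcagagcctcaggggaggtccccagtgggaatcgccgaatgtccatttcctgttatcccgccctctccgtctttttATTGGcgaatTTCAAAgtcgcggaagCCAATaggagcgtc
Ube2c: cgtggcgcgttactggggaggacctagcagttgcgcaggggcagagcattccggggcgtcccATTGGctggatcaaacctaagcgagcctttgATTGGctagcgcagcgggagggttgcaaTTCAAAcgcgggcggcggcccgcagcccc
Mki67: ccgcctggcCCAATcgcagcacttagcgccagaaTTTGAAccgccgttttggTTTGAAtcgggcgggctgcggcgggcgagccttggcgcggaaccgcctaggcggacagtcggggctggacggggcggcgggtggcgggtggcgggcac
Ccnb2: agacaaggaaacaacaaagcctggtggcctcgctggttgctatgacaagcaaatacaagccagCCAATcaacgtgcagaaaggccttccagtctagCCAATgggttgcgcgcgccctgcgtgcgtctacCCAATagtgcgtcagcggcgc

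In these stretches, Mcm6 holds 2 E2F matches and 2 CCAAT matches, Cdc6 holds 1 E2F match, Ckap2l and Ube2c hold 1 CHR match each beside 3 and 2 CCAAT matches, Mki67 holds 2 CHR matches and 1 CCAAT match, and Ccnb2 holds 3 CCAAT matches, with 2 CHR matches in its promoter just outside the stretch, one on each side. The same stretches of Bub1, Ccne1, Cdt1, Mad2l1 and Tk1, not shown, hold 0 E2F and 0 CHR matches. Of these, Bub1 holds 2 CCAAT matches and the others 0. After the start, Bub1 holds 1 CHR match and Cdt1 1 E2F match. A match describes the letters only.

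The values of Mcm6, Cdt1, Ccnb2, Bub1 and Ckap2l each rest on 1 probe. The first 30 bases of each 60-base probe follow, in lower case, as given with the array; on build mm9 the whole probes lie at chr1:130228178-130228237 (minus strand) for Mcm6, chr8:125096893-125096952 (plus strand) for Cdt1, chr9:70255671-70255730 (minus strand) for Ccnb2, chr2:127626988-127627047 (minus strand) for Bub1 and chr2:129094658-129094717 (minus strand) for Ckap2l.
Mcm6: ctgtggaaattgctttcttctgttcccagc
Cdt1: tctgagagtgaaattgggccttctgtaaat
Ccnb2: cctaggcactggactccgatcctgcgcttc
Bub1: aacaagattaagaccttgcgtaataggcta
Ckap2l: cagagcttgcaagacataaatgcccttgtc

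Levels are given as log2 of the processed intensity minus the 75th percentile of the same array, so 0 is a probe as bright as that percentile. They compare a probe between arrays and do not rank one gene's level against another's. A spot counts as detected where the scanner software marked it well above background. The share of all spots detected was 51.3% ± 5.48 at HFD d30, 58.5% ± 2.91 at HFD d10 and 63.8% ± 12.0 in control (SD, n = 5 each). Control arrays ran from 50.9% (replicate 3) to 82.0% (replicate 1). Pairs of arrays correlated at 0.627 to 0.819 over all tested genes. All 5 HFD d30 arrays lay on slide 2 with HFD d10 replicates 4 and 5, and all 5 control arrays on slide 1 with HFD d10 replicates 1 to 3, so HFD d30 and control never shared a slide. Of the 12 T cell markers examined, 11 were detected on all 15 arrays, Cd4 among them, and Cd247 on 14. Markers of other cells were mixed: Ms4a1, a B cell surface protein, was detected on 0 arrays, Cd8b1 on 2, Itgax on 1 and the intestinal stem cell gene Lgr5 on 2, while Pigr, Krt18, Cd22, Gzma, Gzmb, Itgam and Csf1r were detected on all 15.

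No cell cycle gene passed the test in any comparison, and neither did any other gene: 0 of 25997 genes tested had a limma adjusted p under 0.05 in HFD d30 minus control, HFD d10 minus control or HFD d30 minus HFD d10 (0% in each). The smallest adjusted p over all genes was 0.367, 0.704 and 0.432 in these comparisons, and 1337, 673 and 1067 genes had an unadjusted p under 0.05. Among the cell cycle genes the smallest were 0.894 (Mcm6), 0.744 (Ckap2l) and 0.958 (Mcm6). Many of the transcripts were nevertheless measured in these cells. Of the 44 genes, 41 were detected on at least 5 of the 15 arrays and were tested, 18 of replication and 23 of mitosis, and 13 were detected on all 15 arrays. Those 13 were the replication genes Cdc45, Cdt1, E2f1, Mcm4, Mcm7, Pcna, Tk1 and Tyms and the mitosis genes Birc5, Cenpa, Mad2l1, Mki67 and Plk1. The 3 genes left out as too dim were Ccne2, an E-type cyclin (detected on 0 arrays), Aurkb, a kinase of the chromosomal passenger complex (1 array), and the checkpoint gene Bub1b (4 arrays).

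**Figure D1:**
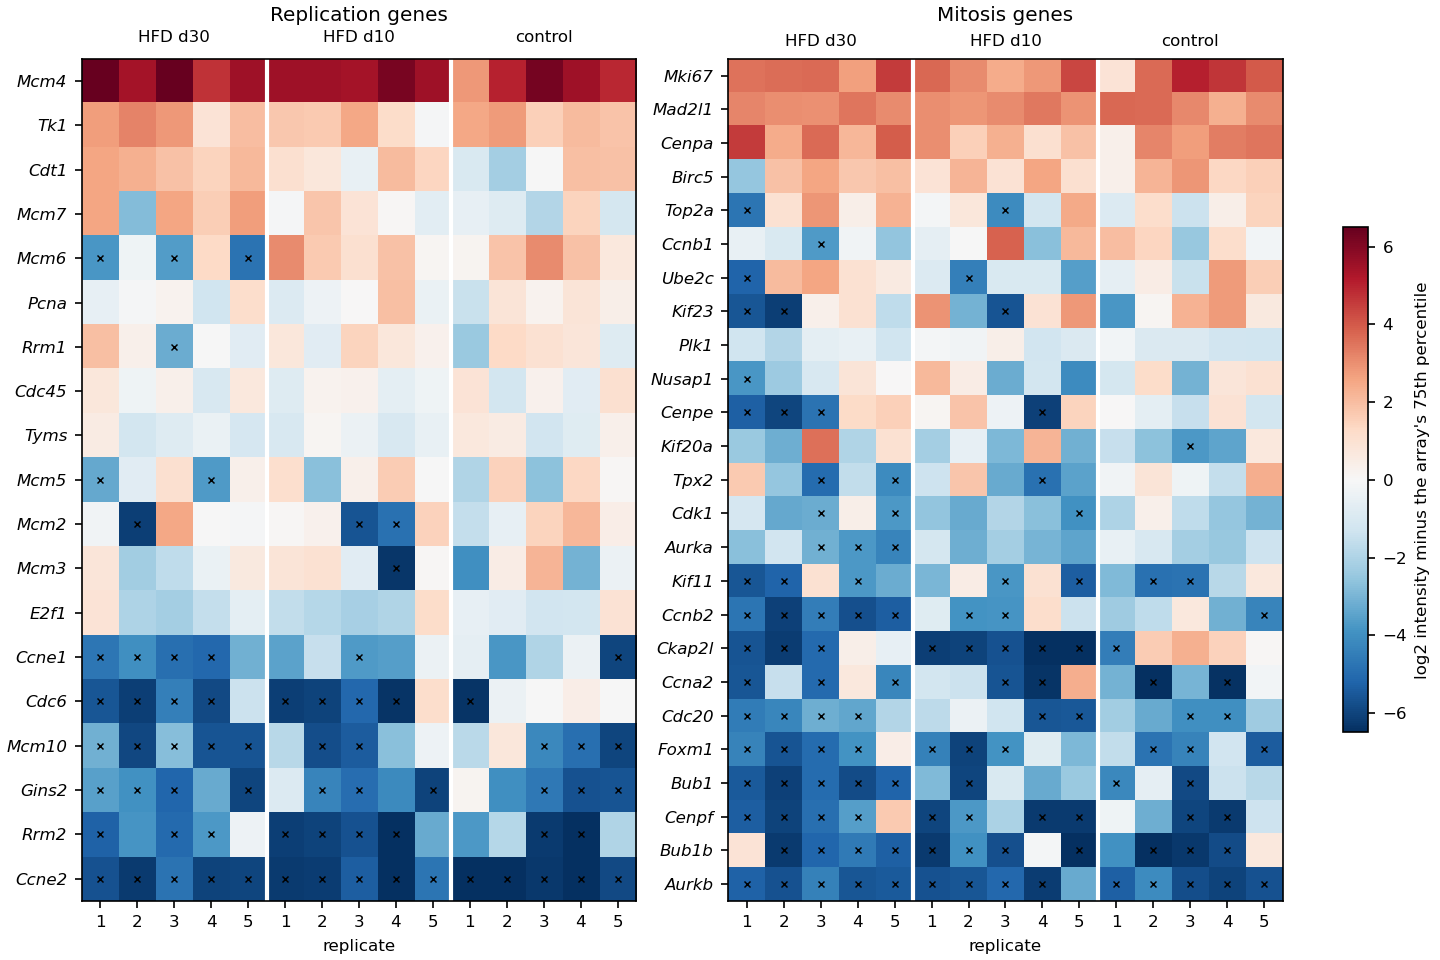
Each cell is the log2 intensity of a gene's probe minus the array's 75th percentile, for 19 replication genes (left) and 25 mitosis genes (right), with arrays of HFD d30, HFD d10 and control across and genes ordered by mean signal; a cross marks a spot not well above background. The top rows are red in all groups, and crosses gather in the lower rows, with more of them in the HFD d30 columns than in the control columns.

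Fewer of the genes were detected per array at HFD d30. Of the 25 mitosis genes, HFD d30 arrays detected 11, 14, 11, 16 and 17 (replicates 1 to 5), HFD d10 arrays 20, 17, 16, 18 and 19, and control arrays 22, 20, 17, 20 and 22. The groups HFD d30 and control met at 17 genes. The means were 13.8 ± 2.77 genes at HFD d30 (55.2% of the list), 18 ± 1.58 at HFD d10 (72%) and 20.2 ± 2.05 in control (80.8%; SD, n = 5 each). Of the 19 replication genes, the means were 12.6 ± 1.67 at HFD d30 (66.3%), 14.6 ± 1.95 at HFD d10 (76.8%) and 16 ± 1.41 in control (84.2%), with ranges of 11 to 15, 12 to 17 and 15 to 18. The share of all spots detected had the same order of group means, as given above. Within slide 2, mitosis genes detected averaged 13.8 on 5 HFD d30 arrays and 18.5 on 2 HFD d10 arrays, where all spots detected averaged 51.3% and 57.3%. Within slide 1, they averaged 17.7 on 3 HFD d10 arrays and 20.2 on 5 control arrays, where all spots detected averaged 59.3% and 63.8%.

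**Figure D2:**
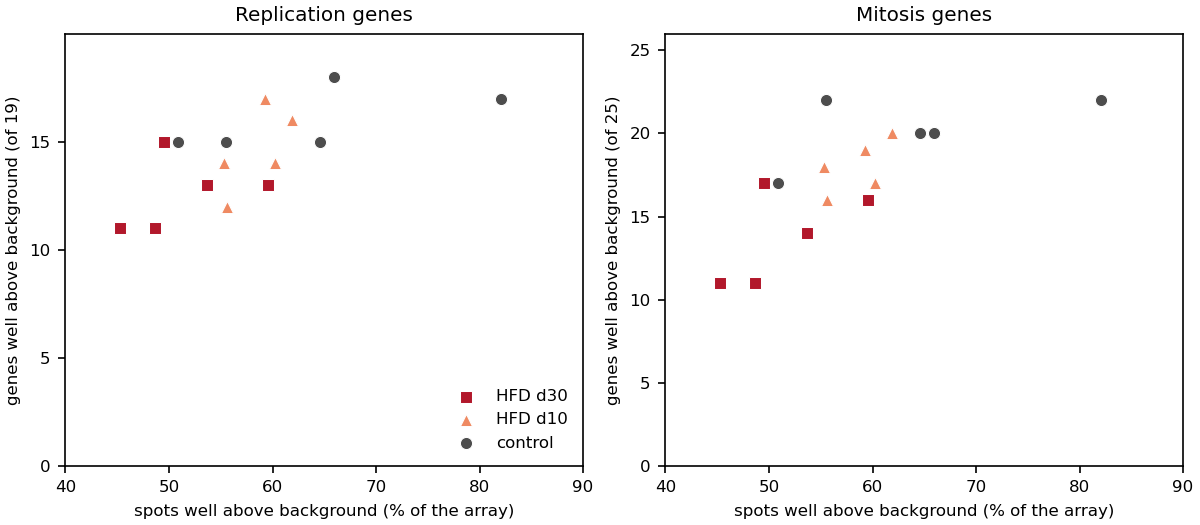
Number of genes well above background on each array (y axis) against the share of all spots of that array well above background in percent (x axis), for 19 replication genes (left) and 25 mitosis genes (right); squares are HFD d30, triangles HFD d10 and circles control. HFD d30 arrays lie at 45.2% to 59.5% of spots with 11 to 17 mitosis genes, and control arrays at 50.9% to 82.0% with 17 to 22.

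A gene was counted as lost where HFD d30 arrays detected it at least 3 fewer times than control arrays. Of 23 mitosis genes tested, 4 were lost in this sense, Ccnb2, Bub1, Aurka and Cenpe, and of 18 replication genes tested 3 were, Mcm6, Cdc6 and Ccne1, against 6.27% of all genes tested. In HFD d10 minus control the losses were Ckap2l among mitosis genes and Cdc6 among replication genes, against 2.59% of all genes tested. In HFD d30 minus HFD d10 they were Ccnb2, Bub1 and Aurka, and Mcm6, Ccne1 and Mcm10, against 4.58%. No tested gene of either list was detected on 3 or more further arrays in HFD d30 minus control, HFD d10 minus control or HFD d30 minus HFD d10, where 0.192%, 0.562% and 0.615% of all genes tested were. In bulk samples like these, fewer cells of a type and less RNA per cell cannot be told apart.

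Marker lists of T cells and of other cells were counted in the same way. Of 12 epithelial markers, HFD d30 arrays detected 6.4 on average (5 to 9), HFD d10 arrays 7 (5 to 9) and control arrays 8.4 (6 to 11), and their mean level ranged from -3.00 to -1.42, from -3.49 to -1.54 and from -2.63 to -1.49 in the same groups. The crypt genes Lgr5 and Olfm4 were detected on 0 and 1 HFD d30 arrays, 1 and 0 HFD d10 arrays and 1 and 2 control arrays. Ascl2 of the same list was detected on 4 HFD d30, 3 HFD d10 and 4 control arrays. Of 9 B and plasma cell markers, 5.8 were detected on average at HFD d30, 5.2 at HFD d10 and 5.8 in control, with mean levels from -2.11 to -1.05, from -3.00 to -1.33 and from -2.51 to -0.93. Of 9 CD8 and NK cell markers, 5.6 were detected on average at HFD d30, 6.8 at HFD d10 and 6.8 in control, with mean levels from -0.83 to 0.22, from -0.41 to 1.03 and from -0.69 to 0.40. Of 9 macrophage and dendritic cell markers, 6.4 were detected at HFD d30, 5.8 at HFD d10 and 7 in control, with mean levels from -1.18 to 0.95, from -1.98 to -0.42 and from -1.69 to 1.06. The level ranges of all 4 lists overlapped between the groups. Of 12 T cell markers, 11 averaged higher at HFD d30 than in control, with a median difference of 0.31, and their mean level ranged from 2.86 to 3.77 at HFD d30, from 2.74 to 3.43 at HFD d10 and from 1.36 to 4.28 in control. Control replicate 1 had the lowest T cell level, 1.36, and detected 9 of 9 macrophage and dendritic cell markers, 11 of 12 epithelial markers and 8 of 9 B and plasma cell markers, the most of any control array. The part of these cells, of control replicate 1 and of the share of spots detected, in the counts above was not tested.

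Among replication genes, the helicase subunits averaged on both sides of control, and none passed the test. At HFD d30, Mcm6 was dim on 3 of 5 arrays while Mcm4 and Mcm7 averaged above control, and the loading factor Cdt1 was bright on every array. At HFD d10, Mcm2 had the largest difference from control of the 6 subunits, at -2.11, and the loading factor Cdc6 averaged below control at both times. Of the 18 replication genes tested, 7 averaged higher and 11 lower at HFD d30 than in control, with a median log2 difference of -0.36 against 0.00 over all genes tested, of which 49.7% were lower. At HFD d10 the split was also 7 and 11, with a median of -0.09 against -0.00 over all genes, of which 50.1% were lower. In HFD d30 minus HFD d10 it was 9 and 9, with a median of 0.06 against 0.06 over all genes, of which 46.9% were lower. In HFD d30 minus control, the 8 replication genes detected on all arrays had a median of 0.12, and the 10 detected on some arrays -1.05. That split uses detection on the same arrays, so a gene undetected at HFD d30 falls among the 10 by definition.

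Mcm6, a subunit of the helicase ring, had -3.80, -0.30, -3.65, 1.31 and -4.78 on HFD d30 arrays (replicates 1 to 5), 3.05, 1.72, 1.05, 1.92 and 0.11 on HFD d10 arrays and 0.18, 1.86, 3.06, 1.91 and 0.66 on control arrays. HFD d30 replicate 4 lay among the other groups, the other HFD d30 arrays lay below every HFD d10 and control array, and replicates 1, 3 and 5 were not well above background. The log2 difference was -3.78 for HFD d30 minus control (SE 1.02, adjusted p = 0.894) and -3.81 for HFD d30 minus HFD d10 (SE 1.02, adjusted p = 0.958). With slide as a block these were -2.85 and -3.26, and in the authors' deposited log2 values, which hold only detected spots, they were -0.84 and -0.75. HFD d10 minus control was 0.04 (SE 1.02).

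The other ring subunits are Mcm2, Mcm3, Mcm4, Mcm5 and Mcm7. Mcm4, whose probe had the highest mean signal of the list, had 6.48, 5.43, 7.21, 4.70 and 5.51 on HFD d30 arrays, 5.53, 5.49, 5.39, 6.15 and 5.51 on HFD d10 arrays and 2.83, 4.98, 6.20, 5.52 and 4.91 on control arrays. Apart from control replicate 1, its groups overlapped, and the difference was 0.98 for HFD d30 minus control (SE 0.54) and 0.73 for HFD d10 minus control (SE 0.54). Mcm7 averaged 1.32 ± 2.36 at HFD d30, 0.39 ± 0.97 at HFD d10 and -0.60 ± 1.24 in control (SD, n = 5 each), and was above every control array on 4 of 5 HFD d30 arrays. Mcm2, Mcm3 and Mcm5 differed from control by -1.17, 0.38 and -0.92 at HFD d30 and by -2.11, -0.08 and 0.43 at HFD d10, with SEs of 1.11 to 1.57. The 95% interval of each of these differences held 0. Mcm10, which helps to activate the ring, was detected on 0 HFD d30, 3 HFD d10 and 2 control arrays, and differed from control by -1.39 at HFD d30 (95% interval -4.19 to 1.41, adjusted p = 0.955).

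**Figure D3:**
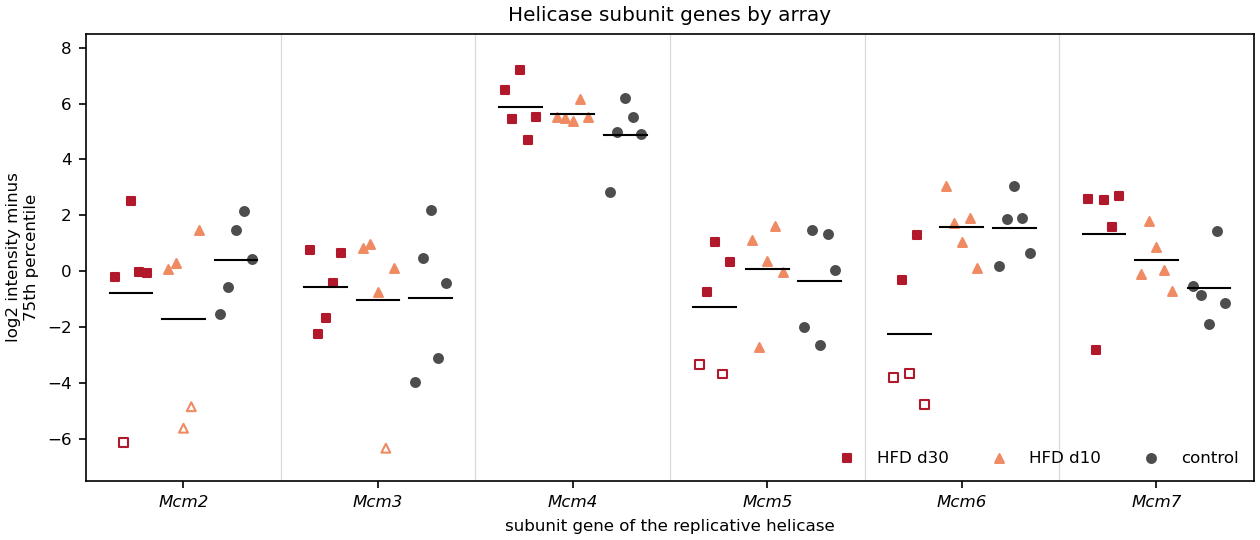
Log2 intensity minus the array's 75th percentile (y axis) of the 6 subunit genes of the replicative helicase (x axis), 1 point per array, with squares for HFD d30, triangles for HFD d10 and circles for control; open points are not well above background and lines are group means. Mcm6 has 4 of 5 HFD d30 squares below all HFD d10 and control points, while the groups of Mcm2, Mcm3, Mcm4 and Mcm5 overlap widely.

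The helicase loading genes Cdt1 and Cdc6 averaged on opposite sides of control by the probes used, and neither passed the test. Cdt1 had 2.55, 2.30, 1.91, 1.44 and 2.09 on HFD d30 arrays, 1.02, 0.76, -0.46, 2.04 and 1.41 on HFD d10 arrays and -0.98, -2.19, -0.00, 1.98 and 1.92 on control arrays. Every HFD d30 array lay above the control mean of 0.15, and control replicates 4 and 5 lay within the HFD d30 range. The difference was 1.91 for HFD d30 minus control (SE 0.73, adjusted p = 0.927), and Cdt1 was the only replication gene of 18 with a higher level and an unadjusted p under 0.05, a rule met by 2.47% of all genes tested. With slide as a block it was 0.63, and in the deposited log2 values 0.39.

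Cdc6 had -5.54, -6.13, -4.44, -5.86 and -1.39 on HFD d30 arrays, -6.12, -6.02, -5.12, -6.39 and 1.16 on HFD d10 arrays and -6.39, -0.37, -0.01, 0.45 and -0.01 on control arrays. It was detected on 1 array at HFD d30, 1 at HFD d10 and 4 in control, so 1 array in each group went against the others. Its difference from control was -3.40 at HFD d30 (SE 1.57, adjusted p = 0.927) and -3.23 at HFD d10 (SE 1.57). A second Cdc6 probe differed by 0.56 and 0.40 in the same comparisons, so the probes disagree in direction. Cdc6 and Mcm6 were the 2 replication genes lower at HFD d30 than in control at an unadjusted p under 0.05, a rule met by 2.67% of all genes tested. None of the 18 was higher or lower by that rule in HFD d10 minus control, as 0.889% and 1.7% of all genes were.

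Ccne1, the cyclin that drives entry into S phase with Cdk2, had -4.68, -4.00, -4.91, -5.08 and -3.15 on HFD d30 arrays, -3.49, -1.51, -3.67, -3.59 and -0.40 on HFD d10 arrays and -0.56, -3.79, -1.96, -0.37 and -5.94 on control arrays. HFD d30 arrays lay at the low end, but control replicate 5 was the lowest array. It was detected on 1 HFD d30, 4 HFD d10 and 4 control arrays, so most HFD d30 values are of undetected spots. The difference was -1.83 for HFD d30 minus HFD d10 (SE 1.03) and -1.84 for HFD d30 minus control (SE 1.03). A second Ccne1 probe, detected on 2 arrays, differed by 0.54 and 0.26 in the same comparisons. E2f1, the transcription factor of many S phase genes, averaged -1.11 ± 1.28 at HFD d30, -1.27 ± 1.39 at HFD d10 and -0.55 ± 0.89 in control (SD, n = 5 each).

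Genes of nucleotide supply and of the fork come next. Tk1, which salvages thymidine, had 2.71, 3.25, 2.82, 0.89 and 2.02 on HFD d30 arrays, 1.74, 1.70, 2.52, 1.17 and -0.09 on HFD d10 arrays and 2.52, 2.77, 1.55, 2.04 and 1.84 on control arrays. Its groups overlapped, HFD d10 replicate 5 was the lowest array, and the difference of this probe was 0.19 for HFD d30 minus control (95% interval -0.93 to 1.31) and -0.74 for HFD d10 minus control (SE 0.53). A second Tk1 probe, detected on 12 arrays, differed from control by -1.56 at HFD d30 and -0.59 at HFD d10. Without HFD d10 replicate 5 the HFD d10 difference was -0.36, and with slide as a block -0.16. Pcna, the sliding clamp of the polymerases, averaged -0.11 ± 0.90 at HFD d30, 0.07 ± 1.12 at HFD d10 and 0.16 ± 0.94 in control (SD, n = 5 each), with a 95% interval of -1.64 to 1.10 for HFD d30 minus control. Tyms, which makes thymidylate, differed by -0.50 (SE 0.54) and Cdc45 by 0.04 (SE 0.55) at HFD d30. The ribonucleotide reductase genes Rrm1 and Rrm2 differed by -0.29 (SE 0.89) and 0.41 (SE 1.14), and Gins2 by -0.42 (SE 1.15). Intervals of this width allow differences in either direction.

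**Figure D4:**
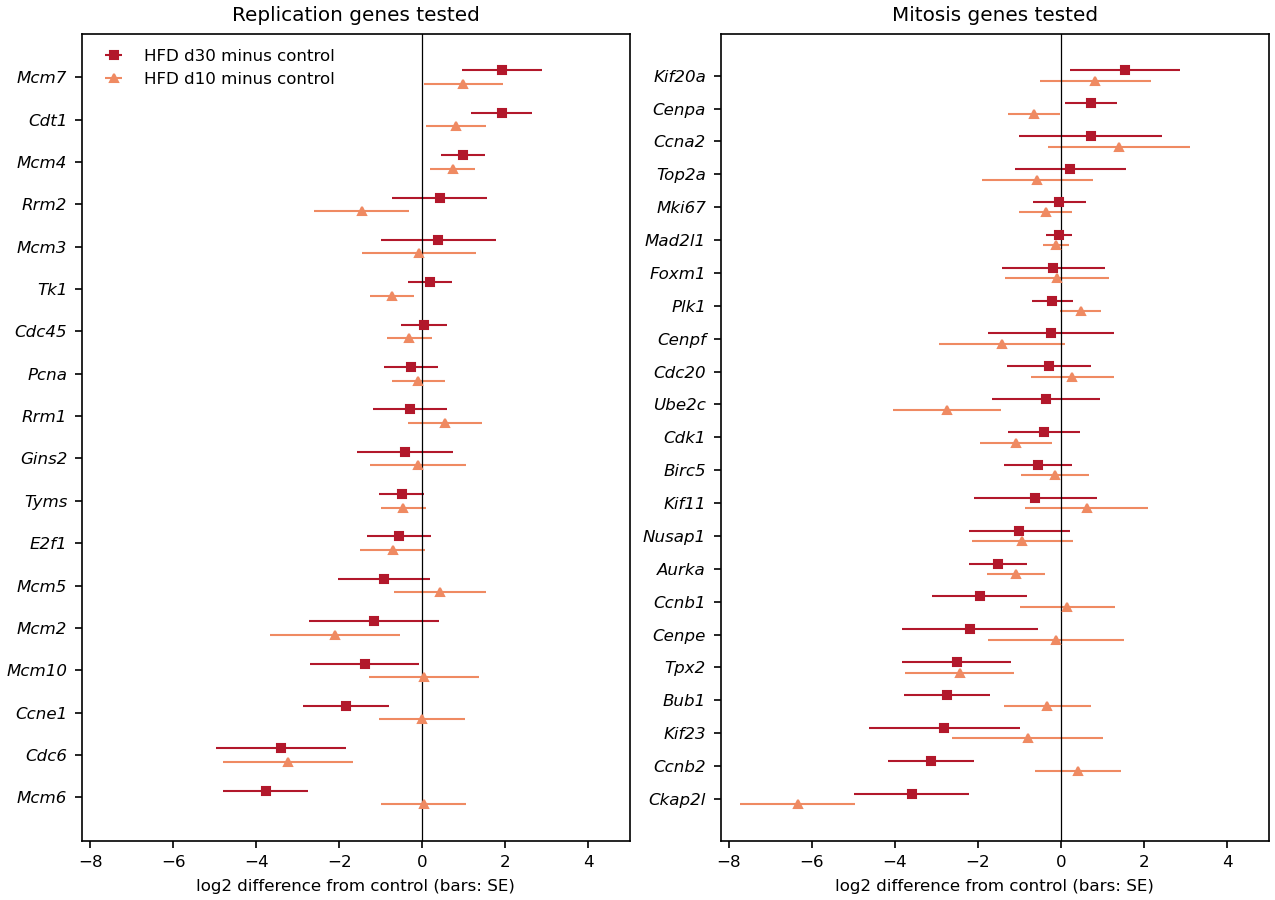
Log2 difference from control (x axis; bars are SE) of the 18 replication genes (left) and 23 mitosis genes (right) tested, for HFD d30 (squares) and HFD d10 (triangles), with genes ordered by the HFD d30 difference. Most mitosis squares lie left of 0, with Ccnb2, Bub1 and Ckap2l furthest from 0 for their SE, while replication squares run from -3.78 for Mcm6 to 1.92 for Mcm7.

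Mitosis genes averaged lower at HFD d30 than in control more often than not, and none passed the test. Of 23 mitosis genes tested, 4 averaged higher and 19 lower at HFD d30 than in control (82.6% lower, against 49.7% of all genes tested), with a median log2 difference of -0.41 against 0.00 over all genes. At HFD d10, 7 averaged higher and 16 lower than in control (69.6% lower, against 50.1%), with a median of -0.33 against -0.00. In HFD d30 minus HFD d10, 9 averaged higher and 14 lower, with a median of -0.08 against 0.06. Both comparisons with control share the control arrays. Single arrays moved these medians. Without control replicate 1 the mitosis median was -0.66 at HFD d30 (17 of 23 lower) and -0.64 at HFD d10 (13 of 23 lower), and leaving out HFD d30 replicate 1 or replicate 3 gave -0.07 or -0.91 at HFD d30. With slide as a block, 14 of 23 were lower at HFD d30 than in control, with a median of -0.23 against 0.15 over all genes, and with normexp background correction 13 of 23 were, with a median of -0.14 against 0.10. In the deposited log2 values 13 of 21 were lower, where 70.2% of all genes were. The 5 mitosis genes detected on all arrays had a median of -0.05 in HFD d30 minus control, and the 18 detected on some arrays -0.82. That split uses detection on the same arrays, so a gene undetected at HFD d30 falls among the 18 by definition.

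Mki67, which encodes the proliferation marker Ki-67, had 3.55, 3.61, 3.71, 2.68 and 4.53 on HFD d30 arrays, 3.74, 3.09, 2.41, 2.82 and 4.34 on HFD d10 arrays and 0.90, 3.67, 5.06, 4.67 and 3.98 on control arrays. All 15 arrays detected it, its groups overlapped, and control replicate 1 was the lowest array. The difference was -0.04 for HFD d30 minus control (95% interval -1.41 to 1.33) and -0.37 for HFD d10 minus control (95% interval -1.74 to 1.00). Mad2l1, a spindle checkpoint protein, had 3.16, 3.00, 2.99, 3.46 and 3.07 on HFD d30 arrays, 3.04, 2.86, 3.05, 3.40 and 2.93 on HFD d10 arrays and 3.74, 3.68, 3.11, 2.32 and 3.08 on control arrays. Its groups overlapped, and the difference was -0.05 for HFD d30 minus control (95% interval -0.71 to 0.61) and -0.13 for HFD d10 minus control (95% interval -0.79 to 0.53). The other Mad2l1 probes differed from control by -0.21 and -0.45 at HFD d30 and by -0.68 and 1.81 at HFD d10. Top2a, the topoisomerase that untangles chromosomes, averaged 0.36 ± 3.01 at HFD d30, -0.44 ± 2.43 at HFD d10 and 0.13 ± 1.25 in control (SD, n = 5 each).

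Ccnb2, a B-type cyclin that activates Cdk1, had -4.73, -6.06, -4.52, -5.72 and -5.38 on HFD d30 arrays, -0.76, -3.87, -3.82, 1.16 and -1.38 on HFD d10 arrays and -2.29, -1.67, 0.67, -3.12 and -4.30 on control arrays. No HFD d30 array detected it, while 3 HFD d10 and 4 control arrays did. HFD d10 replicates 2 and 3 and control replicate 5 were not detected either, so their order against the HFD d30 arrays is not measured. With HFD d30 values raised to a floor, it was at least 2.66-fold lower at HFD d30 than in control (adjusted p = 0.927). Against HFD d10 it was at least 3.53-fold lower (adjusted p = 0.999). These bounds raise each HFD d30 value to at least the dimmest level its array called well above background. They are bounds only where undetected spots lie at or below that level, which the detection call does not ensure. Undetected spots of control and HFD d10 keep their values. Without control replicate 3 the bound against control was 1.63-fold and without HFD d10 replicate 4 the bound against HFD d10 was 2.14-fold. With normexp background correction the log2 differences were -0.74 and -1.08, smaller than these bounds, which are 1.41 and 1.82 in log2 units. Within slide 2, HFD d30 minus HFD d10 rested on 2 HFD d10 arrays, at 1.16 and -1.38, and all 5 HFD d30 arrays lay below both. Ccnb1, the other B-type cyclin measured, averaged -1.59 ± 1.49 at HFD d30, 0.51 ± 2.52 at HFD d10 and 0.37 ± 1.78 in control (SD, n = 5 each), a difference from control of -1.96 (SE 1.14) at HFD d30. Their kinase Cdk1 differed by -0.41 and the S and G2 phase cyclin Ccna2 by 0.71 (SE 1.71).

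Bub1, a kinase of the spindle checkpoint, had -5.47, -6.09, -4.99, -5.83 and -5.18 on HFD d30 arrays, -2.86, -5.97, -0.98, -3.25 and -2.41 on HFD d10 arrays and -4.18, -0.59, -5.89, -1.40 and -1.78 on control arrays. It was detected on no HFD d30 array, 4 HFD d10 and 3 control arrays, and HFD d10 replicate 2 and control replicates 1 and 3 were among the undetected arrays. With the same floor, it was at least 1.72-fold lower at HFD d30 than in control (adjusted p = 0.927). Against HFD d10 it was at least 1.37-fold lower (adjusted p = 0.999). Leaving out 1 array gave bounds of 1.18-fold (without control replicate 2) to 2.96-fold (without control replicate 3) against control, and no bound above 1-fold against HFD d10 without HFD d10 replicate 3. With normexp background correction the log2 differences were -0.74 and -0.46. Aurka, the kinase of the spindle poles, was detected on 2 HFD d30, 5 HFD d10 and 5 control arrays and differed from control by -1.52 at HFD d30 (SE 0.70, adjusted p = 0.927). Its activator Tpx2 differed by -2.51 (SE 1.31). The 4 mitosis genes lower at HFD d30 than in control at an unadjusted p under 0.05 were Ccnb2, Bub1, Aurka and Ckap2l, against 2.67% of all genes, and none was higher by that rule, against 2.47%. The count lower was 1 with normexp background correction, 1 with all values raised to the floor and 1 with slide as a block. It was 0 in the deposited log2 values, 3 with quantile normalization and 5 with the percentile over detected probes.

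Ckap2l, a spindle-associated protein, had -5.63, -6.15, -5.03, 0.37 and -0.53 on HFD d30 arrays, -6.11, -6.04, -5.64, -6.46 and -6.45 on HFD d10 arrays and -4.49, 1.65, 2.30, 1.49 and 0.06 on control arrays. No HFD d10 array detected it, against 2 HFD d30 and 4 control arrays. Control replicate 1 was not detected either. With the same kind of floor on HFD d10 values, it was at least 19.8-fold lower at HFD d10 than in control (adjusted p = 0.744). It was the 1 mitosis gene of 23 lower at an unadjusted p under 0.05 there, where 1.7% of all genes were. By that rule 0.889% of all genes were higher, and no mitosis gene was. Leaving out 1 array gave bounds of 13.8-fold (without control replicate 3) to 44.7-fold (without control replicate 1). With normexp background correction the log2 difference was -3.09, smaller than the bound, which is 4.31 in log2 units. At HFD d30 its difference from control was -3.60 (SE 1.39, adjusted p = 0.927), with replicates 4 and 5 apart from the other HFD d30 arrays. HFD d30 minus HFD d10 was 2.74 (SE 1.39, 95% interval -0.20 to 5.69), resting on those 2 arrays.

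Ube2c, the ubiquitin-conjugating enzyme of the anaphase-promoting complex, had -5.19, 2.03, 2.57, 1.01 and 0.57 on HFD d30 arrays, -0.89, -4.43, -1.00, -1.00 and -3.57 on HFD d10 arrays and -0.59, 0.49, -1.44, 2.79 and 1.58 on control arrays. HFD d10 arrays were low, HFD d30 replicate 1 stood apart from its group, and HFD d10 and control overlapped. The difference was -2.74 for HFD d10 minus control (SE 1.30) and 2.38 for HFD d30 minus HFD d10 (SE 1.30), and a second probe gave -2.65 and 2.54. Cdc20, which works beside it, was detected on 1 HFD d30, 3 HFD d10 and 3 control arrays and differed from control by -0.30 at HFD d30 (SE 1.01).

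**Figure D5:**
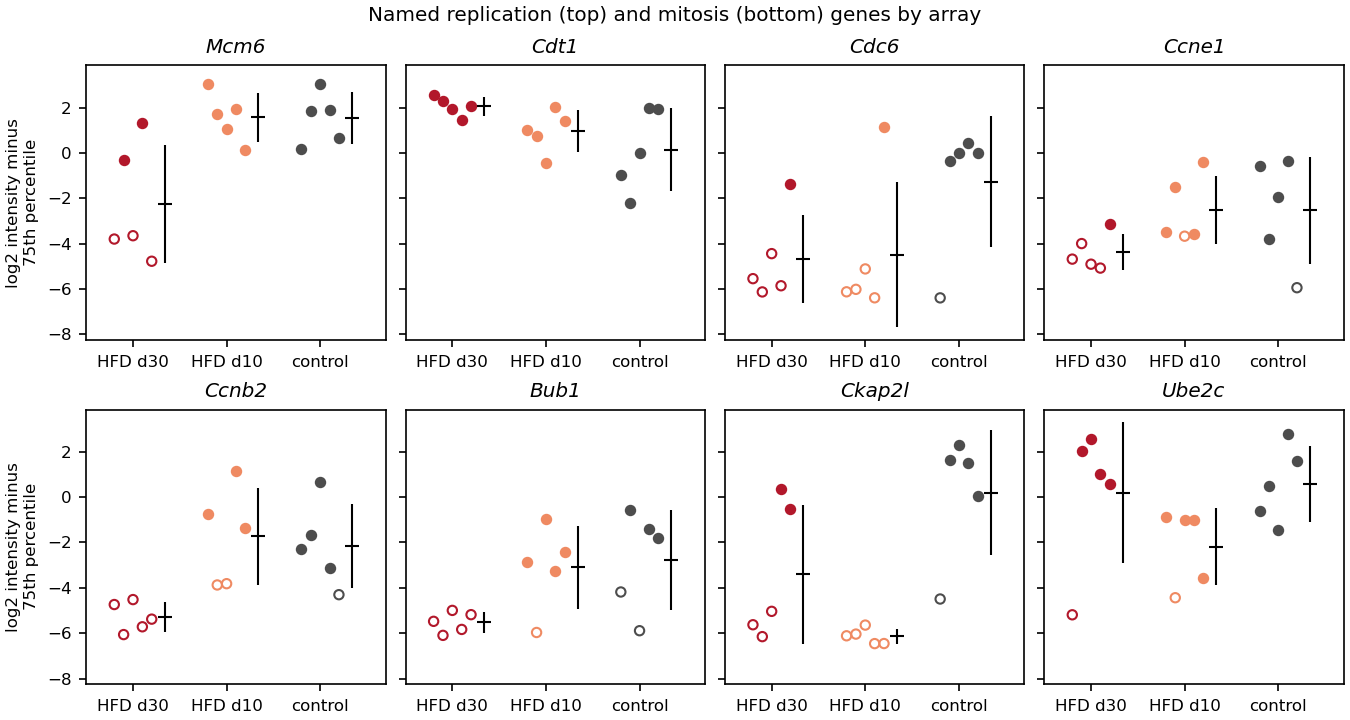
Log2 intensity minus the array's 75th percentile (y axis) of 4 replication genes (top) and 4 mitosis genes (bottom) on each array of HFD d30, HFD d10 and control, with filled points well above background, open points not, and the mean with its SD to the right of each group. Ccnb2 and Bub1 are open on all 5 HFD d30 arrays, Ckap2l is open on all 5 HFD d10 arrays, and Cdt1 lies between 1.44 and 2.55 at HFD d30.

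Genes of the centromere and of the spindle motors followed no common direction. Cenpa, the histone that marks centromeres, averaged 3.35 ± 1.01 at HFD d30, 1.96 ± 0.75 at HFD d10 and 2.62 ± 1.31 in control (SD, n = 5 each), and HFD d30 minus HFD d10 was 1.39 (SE 0.63, adjusted p = 0.999). It was the 1 mitosis gene higher at HFD d30 than at HFD d10 at an unadjusted p under 0.05, against 1.82% of all genes, while Ccnb2 and Bub1 were lower by that rule, against 2.29%. Cenpe and Cenpf, which link chromosomes to microtubules, differed from control by -2.20 (SE 1.64) and -0.24 (SE 1.51) at HFD d30. The motors Kif20a, Kif11 and Kif23 differed by 1.54 (SE 1.33), -0.62 (SE 1.48) and -2.81 (SE 1.83), and a second Kif23 probe by -0.05. Plk1 and Birc5, a kinase and a passenger complex protein detected on all arrays, differed by -0.21 (SE 0.50) and -0.56 (SE 0.82), and the other Birc5 probes by -0.89 and -2.61. Nusap1 of the spindle differed by -1.01 (SE 1.22), and Foxm1, a transcription factor of mitosis genes, by -0.19 (SE 1.25).

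Not all probes of a gene told the same direction. Of 9 cell cycle genes with several probes detected on at least 5 arrays, the probes disagreed in sign for 2 in HFD d30 minus control (Cdc6 and Tk1), for 4 in HFD d10 minus control and for 5 in HFD d30 minus HFD d10. For Mki67 the second probe differed by -0.21 at HFD d30 and -1.32 at HFD d10 from control. Probes detected on fewer than 5 arrays were left out of that count. At HFD d30 they differed from control by 1.92 for Foxm1, 1.01 for Tpx2, 0.26 for Ccne1 and -0.33 for Tk1. Each was opposite in sign to the probe used. For Cdk1 they differed by -0.14 and -0.10, in the same direction as the probe used.

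Further genes of the same processes, listed from general knowledge, are given for comparison. Of 39 further replication genes (primases, polymerases, chromatin assembly and licensing), 34 were tested, and 21 averaged higher and 13 lower at HFD d30 than in control, with a median of 0.25. That split depended on the processing: 13 were higher and 21 lower (median -0.19) with the share of spots detected as a covariate, 17 and 17 with slide as a block, and 16 and 18 both with the percentile over detected probes (median -0.14) and in the deposited log2 values (median -0.03). All-gene medians were 0.09 with that covariate, 0.15 with slide as a block, -0.38 with the percentile over detected probes and -0.24 in the deposited values. At HFD d10 the split was 16 and 18, with a median of -0.08. Asf1b, a histone chaperone of S phase, averaged -1.01 ± 1.46 at HFD d30, 1.47 ± 1.00 at HFD d10 and 1.55 ± 0.65 in control (SD, n = 5 each). Its difference was -2.56 for HFD d30 minus control (SE 0.68, adjusted p = 0.883), with all 5 HFD d30 arrays below the control mean. Prim2, the large subunit of primase, differed by -1.03 for HFD d10 minus control (SE 0.47). None of the 34 passed the test.

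Of 51 further mitosis genes, 40 were tested, and 19 averaged higher and 21 lower at HFD d30 than in control, with a median of -0.09, which was 0.18 with the share of spots detected as a covariate and -0.48 with slide as a block. At HFD d10 it was 16 and 24, with a median of -0.24, and 0 of 40 passed the test in either comparison. HFD d30 arrays detected 27.2 ± 3.49 of the 51, HFD d10 arrays 32 ± 2.92 and control arrays 35.2 ± 6.80 (SD, n = 5 each). Kifc1, a spindle motor, was detected on 3 HFD d30 and 5 control arrays and differed by -3.38 (SE 1.65). Spc24, a kinetochore protein, differed by 3.69 for HFD d10 minus control (SE 1.71), and Prc1, which bundles the central spindle, by 2.18 for HFD d30 minus HFD d10 (SE 1.09).

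Upstream of S phase, Ccnd2, a D-type cyclin that responds to mitogens in lymphocytes, averaged 2.73 ± 0.90 at HFD d30, 2.63 ± 0.69 at HFD d10 and 0.93 ± 1.12 in control (SD, n = 5 each). Its difference from control was 1.80 at HFD d30 (SE 0.57, adjusted p = 0.927) and 1.70 at HFD d10 (SE 0.57). With slide as a block these were 2.02 and 1.79, and in the deposited log2 values 0.77 and 1.04. Without control replicates 1 and 3, left out after the data were seen, they were 1.05 and 0.95. All 5 arrays of each diet group lay above the control mean. Of 17 genes of G1 control tested, 10 averaged higher and 7 lower than control at both times, with medians of 0.01 at HFD d30 and 0.28 at HFD d10, and 0 passed the test. With the share of spots detected as a covariate the HFD d30 split was 4 higher and 13 lower, with a median of -0.47. Tfdp1, the partner of E2F factors, averaged -0.86 ± 3.28 at HFD d30 and 2.08 ± 0.88 at HFD d10, a difference of -2.94 (SE 1.24).

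Of 23 inhibitors of the cycle, 17 averaged higher and 6 lower at HFD d30 than in control, with a median of 0.33, and 10 averaged higher and 13 lower at HFD d10, with a median of -0.06. In HFD d30 minus HFD d10 the split was 18 and 5, with a median of 0.31, and 0 of 23 passed the test in any of the 3 comparisons. The HFD d30 median was -0.23 in the deposited log2 values and -0.67 with the share of spots detected as a covariate, so its sign depended on the processing. The all-gene medians in these settings were -0.24 and 0.09. Cdkn2b, an inhibitor of Cdk4 and Cdk6, was detected on 0 HFD d30 and 4 control arrays (adjusted p = 0.927). Btg2, an antiproliferative gene, differed by 0.74 for HFD d10 minus control (SE 0.45), and Ccng1, a p53 target, by 1.92 for HFD d30 minus HFD d10 (SE 1.03).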

How the data were processed

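RNA of 15 samples had been amplified by SuperAmp and 250 ng of cDNA labelled with Cy3, per the labels' protocols. The deposited scanner files hold linear intensity values from Agilent Feature Extraction 10.7.3.1, per the file headers (annotation build mm9); background had been subtracted within each array, with no scaling between arrays. The authors' deposited value table holds log2 values of detected spots whose columns share 1 distribution; how they were made is not given in the sources used here.

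From the intensity values, control and outlier spots were left out (1 damaged line too), spots of a probe were averaged, and log2 intensity minus the array's 75th percentile was taken. A gene was read from its probe of highest mean signal and entered the test where 5 or more of the 15 arrays had this probe well above background: 25997 genes were tested and 8819 were too dim. The 3 group means came from 1 limma fit (version 3.58.1, R 4.3.3) to the 15 arrays (eBayes with an intensity trend, two-sided), adjusted by Benjamini-Hochberg over the genes tested, at a threshold of 0.05. Intervals are 95% intervals of that fit. The number of arrays limits the precision. Where no array of a group was well above background, a fold is given as a lower bound under a floor. For it, that group's values were raised to at least each array's lowest signal well above background (-5.13 to -2.87). Values of the other group were kept. An undetected spot can lie above its array's floor, as Mcm10 did on HFD d30 replicate 3 (-2.76), so the bound is not strict. On simulated data for HFD d30 minus control over 25997 genes, 19 of 100 genes with a log2 difference of 2 and 47 of 100 with one of 4 were called.

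The genes and lists were chosen with earlier results of these data known. Values on every array are given for the 2 genes of highest mean signal in each list of members and the 2 of smallest p in each list and comparison, and for further lists the 1 gene of smallest p in each comparison was named. Other genes of the 44 were named by role, and Mcm7 and Cenpa after their values were seen. Alternatives were normexp background correction, quantile normalization, the percentile over detected probes, the deposited log2 values, other filters, a floor, the mean over probes, slide, replicate number and share of spots detected in the fit, and leaving out arrays. RefSeq promoters (GRCm38.p6) were searched by symbol.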

Additional observations from a re-analysis of the deposited data

Results flagged for a closer look

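Within-group outliers were sought among 51 sets of 5 arrays (a gene in a group), by whether the gap from the highest or lowest array to its neighbour took more than 0.71 of the group's range (Dixon's 95% value). Chance marks about 5% of sets, and 4 of 51 were marked. Ube2c at HFD d30 had replicate 1 at -5.19, with the next array at 0.57. Mcm4 at HFD d10 had replicate 4 at 6.15, with the next array at 5.53. Cdc6 had replicate 5 at 1.16 at HFD d10, with the next array at -5.12, and replicate 1 at -6.39 in control, with the next array at -0.37.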

How the results depend on the processing

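A list's median counted as moved where it shifted by more than the SD of the list's mean level between arrays of a group, whatever its sign. By that measure, and for single genes by direction and side of the threshold, 1220 values did not move, 12 moved and 1 single gene reversed. The smallest limma adjusted p of these single genes in any alternative was 0.282, so for them the tally in effect records direction only. Changes of size do not count in it: Mcm6 in HFD d30 minus control went from -3.78 to -0.84 in the deposited log2 values. Of 498 alternative values of the 18 list medians, 56 had the opposite sign, spread over 13 medians but not over those of mitosis and replication genes in HFD d30 minus control. The single gene was Cdc6 in HFD d10 minus control, at 0.68 in the deposited log2 values. Genes called in HFD d30 minus control were 1 with slide as a block (Vkorc1l1, not a cell cycle gene). Leaving out 1 array gave 0 to 2 called genes in HFD d30 minus control and in HFD d30 minus HFD d10 (2 without HFD d10 replicate 4, As3mt and Suclg2) and 0 to 1 in HFD d10 minus control (Olfr1201, without HFD d30 replicate 4). No cell cycle gene listed here was called under any alternative run. The median of the further mitosis genes in HFD d30 minus control was -0.48 both with the percentile over detected probes and with slide as a block. That of the inhibitors was -0.23 in the deposited values and -0.67 with the share of spots detected as a covariate in HFD d30 minus control, and -0.11 and -0.39 in HFD d30 minus HFD d10. That of the further replication genes in HFD d30 minus HFD d10 was -0.068 in the deposited values, where the all-gene median was -0.14. The mitosis median in HFD d10 minus control was -0.82 without control replicates 1 and 3 together, an alternative chosen after seeing the data. In HFD d30 minus control, leaving out 1 array gave a mitosis median of -0.91 to -0.07, with 16 to 20 of 23 genes lower, and a replication median of -0.51 to -0.25, with 10 to 14 of 18 lower. The all-gene median in that comparison was -0.38 with the percentile over detected probes, -0.24 in the deposited values and 0.15 with slide as a block, where the mitosis medians were -0.79, -0.16 and -0.23 and the replication medians -0.74, -0.46 and -0.47. With normexp background correction Ckap2l differed by -3.09 in HFD d10 minus control, and Ccnb2 and Bub1 both by -0.74 in HFD d30 minus control. Same-numbered samples of different groups deviated together no more than others (median correlation 0.01 over 15 pairs, -0.13 to 0.15). No pairing by number was seen, though correlations of this kind cannot exclude it. With the replicate block the mitosis and replication medians in HFD d30 minus control were -0.41 and -0.36, and 0 genes were called. The causes were not tested. Values of dim genes are limited by signal over background.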
